A study of Mus musculus with 23 samples.

Results

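S100a5, Pcp4l1 and Calb2 are 3 genes for proteins of neurons that bind calcium or carry an IQ motif. They were taken by name from the 23481 gene symbols listed for each of 23 RNA-seq libraries of mouse olfactory epithelium. S100a5 encodes a small EF-hand protein of the S100 family, Pcp4l1 a small protein with an IQ motif of the kind that binds calmodulin, and Calb2 encodes calretinin, an EF-hand calcium buffer found in many neurons. The level of each gene was followed by odor, dose and litter, and S100a5 was also set against the share of each library's counts that fell on the 1102 odorant receptor (Olfr) genes.

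The libraries were made by pS6 immunoprecipitation: an antibody that recognises ribosomal protein S6 in its phosphorylated form, a mark of ribosomes in recently active neurons, brings down the RNA on those ribosomes. All mice were C57BL/6 at postnatal day 21 and were exposed for 1 h, and the labels name no transgene. In one experiment the odor was acetophenone, an aromatic ketone, with control libraries of litters 1 to 5, 1% acetophenone in litters 3 to 5 and 100% acetophenone in litters 1 to 3. In the other it was TMT (trimethylthiazoline, a constituent of fox scent), with control, 1% TMT and 100% TMT libraries in each of litters 1 to 4. What the control mice received, and how many animals make up a library, is not stated in the sources used here.

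An olfactory sensory neuron expresses a single odorant receptor gene. Odorant binding raises cyclic AMP, cyclic nucleotide-gated channels open, and calcium enters the cilium. Calcium then opens a chloride channel. Through calcium-binding proteins such as calmodulin it also closes the cyclic nucleotide-gated channel again and drives expression of activity-dependent genes. S100a5 is known as one of those genes in mature olfactory neurons, where its RNA is abundant in neurons that receive odor stimulation and scarce in neurons deprived of it.

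The genes lie on separate chromosomes. In GENCODE M21 (GRCm38, the same assembly as mm10), S100a5 (ENSMUSG00000001023) is at chr3:90608523-90611780 on the plus strand, between the neighbouring genes S100a4 and S100a6, and its longest annotated transcript has 431 bases. Pcp4l1 (ENSMUSG00000038370) is at chr1:171173262-171196268 on the minus strand with a transcript of 1577 bases, and Calb2 (ENSMUSG00000003657) is at chr8:110137502-110168210 on the minus strand with a transcript of 1431 bases. No other annotated gene overlapped any of the 3, and the count of uniquely aligned reads equalled the estimated count that also takes in reads with several alignments in 23 of 23 libraries for each gene. Reads shared with a near-identical copy therefore did not enter these values.

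The 250 bases upstream of the start were available for 2 of the genes in the RefSeq promoter table (GRCm38.p6). They are shown because one of them precedes a gene whose level differed 177-fold between libraries and the other a gene whose level differed 3.58-fold. Capitals mark a CCAAT box, the letters CCAAT on either strand (here ATTGG on the strand shown), a motif that was added to the search after the sequences had been read.
S100a5, chr3:90608272-90608521, plus strand: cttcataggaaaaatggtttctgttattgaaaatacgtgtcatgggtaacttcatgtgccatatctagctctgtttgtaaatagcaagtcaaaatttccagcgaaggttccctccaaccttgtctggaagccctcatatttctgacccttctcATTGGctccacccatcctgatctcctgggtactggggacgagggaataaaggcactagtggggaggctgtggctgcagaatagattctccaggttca
Pcp4l1, chr1:171196269-171196518, minus strand: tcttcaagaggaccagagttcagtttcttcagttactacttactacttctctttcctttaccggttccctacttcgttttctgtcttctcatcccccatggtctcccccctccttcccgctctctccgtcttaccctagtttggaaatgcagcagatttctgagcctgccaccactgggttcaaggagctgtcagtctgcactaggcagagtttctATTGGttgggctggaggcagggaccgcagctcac
Each window held 1 match to the CCAAT box, which 33.8% of 32851 promoter windows of this length held. Neither window held TATAAA (12.4% of windows), the cyclic AMP response element TGACGTCA (1.55%), or the homeodomain core TAATTA (4.84%) on either strand. The S100a5 window was 46% G or C and the Pcp4l1 window 51.6%, against a median of 52.4% over all windows.

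The libraries held between 2118099 and 9526932 uniquely aligned counts. All 12 listed markers of mature olfactory neurons were found, and they summed to 4551 to 7904 CPM (counts per 1000000 unique counts of the library) in acetophenone libraries and to 1696 to 4506 CPM in TMT libraries. Per library, 167 to 789 receptor genes had at least 1 count, and the receptor share ran between 0.0232% and 0.820% of counts. Library titles carry code letters that change between litters: litter 1, litters 2 and 3, and litters 4 and 5 of the acetophenone experiment each have their own, TMT litter 1 shares the code of acetophenone litters 4 and 5, and TMT litters 2 to 4 have another. A code and the litters that carry it, and likewise an experiment and its litters, cannot be told apart. The input tissue is a mixture of cell types, and a lower value after immunoprecipitation can mean fewer cells of a type, less RNA of the gene per cell or less of the RNA of those cells brought down by the antibody. Those cannot be told apart either.

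S100a5 was by far the most variable of the 3 genes between libraries. Its CPM spanned a 177-fold range over the 23 libraries, with counts between 50 and 7847. Among genes with a mean of at least 10 CPM, 509 had a library at 0, which leaves their range without a value, and were not ranked. Of the 8295 genes with that mean and no library at 0, 3.64% spanned a larger range, and the median gene spanned 6.06-fold. Pcp4l1 spanned 3.58-fold (110 to 392 CPM) and Calb2 3.14-fold (204 to 642 CPM), and 74.3% and 80.8% of those genes spanned more than Pcp4l1 and than Calb2. Per kilobase of the longest transcript, the median level was 2443 CPM for S100a5, 126 CPM for Pcp4l1 and 267 CPM for Calb2, against 175 CPM for Omp, the olfactory marker protein of mature olfactory neurons. Omp lies within the gene Capn5 on the same strand, and how reads in the overlap were counted is not given in the sources used here, so values of Omp are uncertain to that extent.

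**Figure D1:**
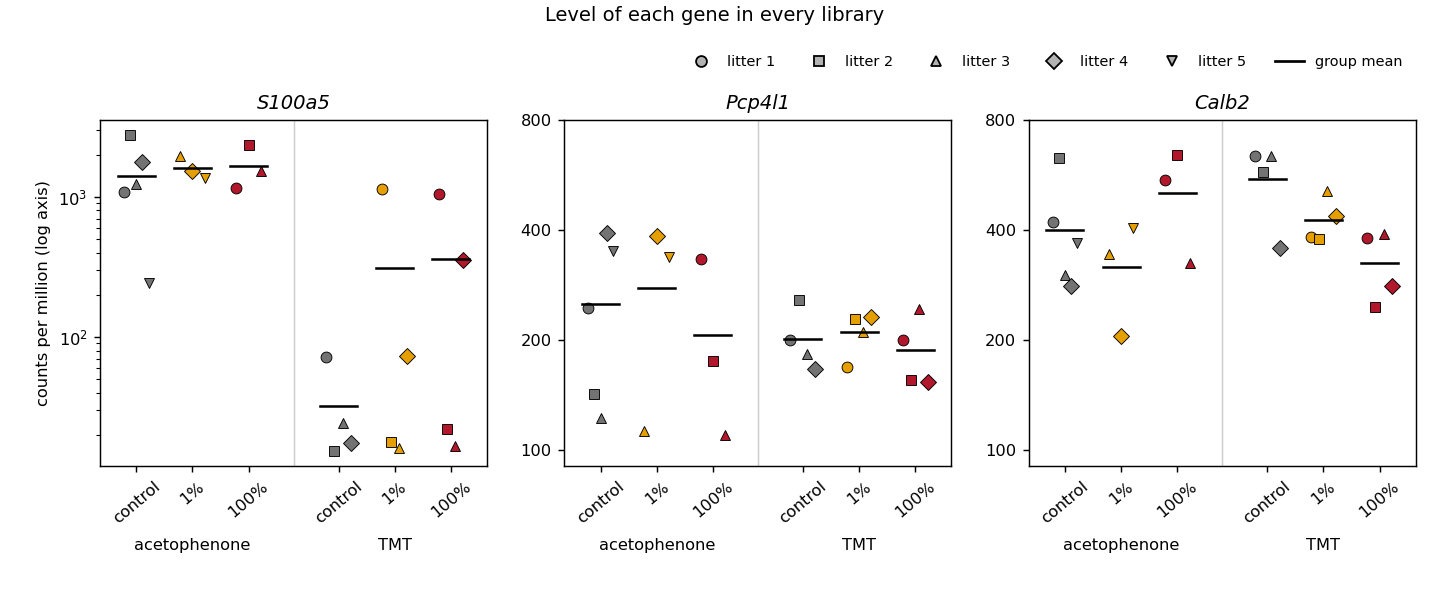
Level of S100a5, Pcp4l1 and Calb2 in each of 23 libraries, in CPM on a log axis, by experiment and dose (grey control, orange 1%, red 100%); marker shapes give the litter and horizontal lines the group means. S100a5 lies at 245 CPM or more in every acetophenone library and under 25 CPM in 7 of 12 TMT libraries, while Pcp4l1 and Calb2 stay between 110 and 642 CPM throughout.

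In the acetophenone experiment S100a5 was high in nearly every library, odor or control. Control libraries of litters 1 to 5 had 1084, 2742, 1241, 1771 and 245 CPM. At 1% acetophenone, litters 3 to 5 had 1956, 1526 and 1364 CPM, and at 100% acetophenone, litters 1 to 3 had 1159, 2322 and 1525 CPM. The odor libraries all lay within the range of the controls, and the single low library was the control of litter 5. Its receptor share, 0.134%, was also the lowest of the 11 libraries, and 453 receptor genes were detected in it, against 573 to 789 in the other acetophenone libraries.

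In the TMT experiment S100a5 was low in every control and high in some odor libraries only. The controls of litters 1 to 4 had 72.5, 15.5, 24.3 and 17.4 CPM. At 1% TMT the same litters had 1129, 17.9, 16.3 and 73.6 CPM, and at 100% TMT they had 1053, 22.1, 16.6 and 356 CPM. Litters 1 and 4 were higher than their own control at both doses, by 15.6-fold and 4.22-fold at 1% and by 14.5-fold and 20.4-fold at 100%. Litters 2 and 3 stayed between 0.669 and 1.43 times their control at both doses, and the groups overlapped.

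S100a5 averaged 32.4 ± 27.0 CPM in TMT controls, 309 ± 547 CPM at 1% TMT and 362 ± 487 CPM at 100% TMT (SD, n = 4 each). In the acetophenone experiment it averaged 1416 ± 922 CPM in controls (SD, n = 5), 1615 ± 306 CPM at 1% and 1668 ± 595 CPM at 100% (SD, n = 3 each). By group mean the order from the highest was 100% acetophenone, 1% acetophenone, acetophenone control, 100% TMT, 1% TMT and TMT control. Only the step from acetophenone control to 100% TMT exceeded the larger SD of the pair of groups, and it separates experiments as well as litters; libraries of these groups overlapped too, since the control of acetophenone litter 5 (245 CPM) lay below 2 of the 100% TMT libraries.

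None of the 3 genes passed an adjusted p of 0.05 in any comparison of an odor with its control in edgeR's quasi-likelihood test, which is also what the test gave for all genes. At 100% acetophenone 0% of 11564 genes tested were called, at 1% acetophenone 0% of 12077, and at both TMT doses 0% of 13233. At an unadjusted p under 0.05 there were 48 genes higher and 13 lower at 100% acetophenone, 50 and 43 at 1% acetophenone, 1102 and 842 at 100% TMT, and 389 and 179 at 1% TMT. Among them were S100a5 at both TMT doses and Calb2 at 100% TMT. DESeq2 called 5 genes at 100% acetophenone, 1 at 1% acetophenone, 509 at 100% TMT, Calb2 among them, and 4 at 1% TMT. With litter as a block in edgeR, 0.0951% of genes were called at 100% acetophenone, 0.00828% at 1% acetophenone, 2.37% at 100% TMT (1.84% higher and 0.529% lower) and 0.00756% at 1% TMT. Calb2 at 100% TMT was then the one member called.

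For S100a5 the log2 fold change at 100% TMT against control was 3.56 (SE 1.43, adjusted p = 0.276, edgeR), and within litters, with the block, it was 1.99 (SE 0.80, adjusted p = 0.194). Leaving out single libraries or whole litters gave values between 1.01, without litter 4 and with the block, and 4.21, without the control of litter 1. At 1% TMT it was 3.25 (SE 1.41, adjusted p = 0.999) and within litters 1.14 (SE 0.77, adjusted p = 0.819). Without the 1% library of litter 1 the 1% TMT value was 0.18. Without the 100% library of litter 1 the 100% TMT value was 2.18. The libraries of litter 1 have a title code of their own within the TMT experiment.

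With acetophenone, S100a5 differed by -0.06 on the log2 scale at 100% (SE 0.45, adjusted p = 1.00, edgeR) and by 0.58 at 1% (SE 0.67, adjusted p = 1.00). Within litters the differences were -0.00 (SE 0.16) and 0.98 (SE 0.45, adjusted p = 0.603). The 1% value rested on litter 5, where the 1% library had 5.58 times the CPM of its low control; litters 3 and 4 had 1.58 and 0.862 times theirs. Without the control of litter 5 the 1% value, fitted without the block, was 0.10.

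**Figure D2:**
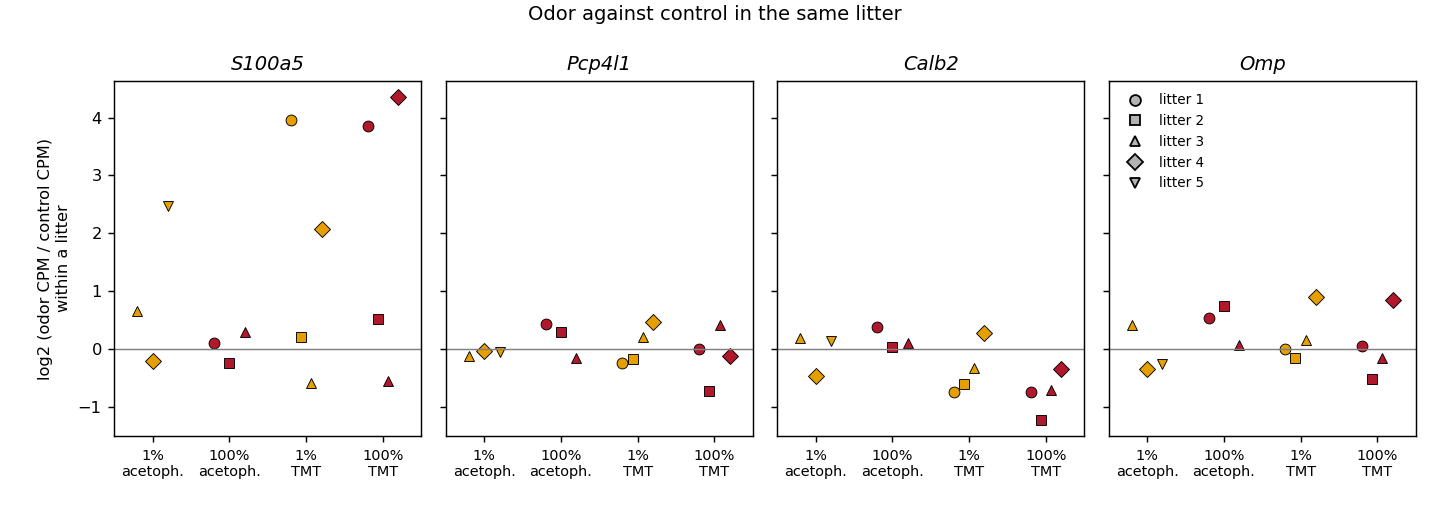
Log2 ratio of CPM in an odor library to CPM in the control library of the same litter, for the 3 genes and Omp, in 4 comparisons; marker shapes give the litter, orange 1% and red 100%. S100a5 has values near 4 in TMT litters 1 and 4 at 100% and between -0.55 and 0.52 in litters 2 and 3, and Calb2 lies below 0 in 4 of 4 litters at 100% TMT.

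Set against Omp, S100a5 showed the same division between litters. The mean log2 ratio of S100a5 to Omp counts was -1.68 ± 2.90 at 100% TMT and -3.68 ± 1.07 in controls (SD, n = 4 each), a difference of 1.99, higher in 3 of 4 litters (exact permutation test over libraries, two-sided, p = 0.286). Without the 100% library of litter 1 the difference was 0.91. At 1% TMT the difference was 1.19, higher in 3 of 4 litters (exact permutation p = 0.657). At 100% acetophenone it was -0.40, higher in 1 of 3 litters (exact permutation p = 0.8), and at 1% acetophenone 1.03, higher in 3 of 3 litters (exact permutation p = 0.6). The 1% acetophenone differences within litters ran from 0.12 to 2.74. Adjusted over these 4 comparisons each p was 0.8, and the smallest p that 3 libraries against 3 can give is 0.1. Omp itself did not pass the edgeR test in any of these comparisons, with log2 fold changes between -0.17 and 0.37.

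Over the TMT libraries as a whole S100a5 was higher where the receptor share was higher, but not among the libraries with the lowest shares. Over the 12 TMT libraries, log2 CPM of S100a5 and log2 receptor share had a Pearson r of 0.944 (permutation p = 3e-05, adjusted p = 0.00012 over 4 coefficients) and a Spearman rho of 0.832 (permutation p = 0.00141, adjusted p = 0.00282). Without the 2 libraries farthest from the median share, r was 0.903 (permutation p = 0.00077). The largest gap between neighbouring log2 shares was 0.775, with 8 libraries below it and 4 above, so r spans both sets. In the acetophenone experiment that gap was 0.830. These permutations treat all libraries as independent, which libraries of a litter are not fully, so their p-values are too small to that extent. After each library was centred on the mean of its litter, r was 0.833, with p = 0.0224 over the 1296 permutations within litters. In litters 2 to 4, which share a title code, r over 9 libraries was 0.914 (exact permutation p = 0.00435) and rho 0.617 (exact permutation p = 0.0857), an addition chosen after seeing the data. Litters were ignored in those permutations too. The 1% and 100% libraries of litter 4 stood apart there, with 73.6 and 356 CPM of S100a5. The rest of those libraries had 15.5 to 24.3 CPM with no steady rise, such as 24.3 CPM at a share of 0.0362% and 16.6 CPM at 0.0498%. No r without the litter 4 odor libraries was computed. The 3 libraries of TMT litter 1 are too few for a value of their own.

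The 7 TMT libraries with under 25 CPM of S100a5 all had receptor shares of 0.0498% or less. The other 5 had shares between 0.0708% and 0.267%. In litter 1 the receptor share was 0.121% in the control, 0.267% at 1% TMT and 0.192% at 100% TMT, and 344, 636 and 476 receptor genes had a count. In litter 4 it was 0.0325% in the control, 0.0708% at 1% and 0.172% at 100%, with 181, 275 and 526 receptor genes. Litters 2 and 3 stayed at 0.0232% to 0.0498% in all 6 libraries, with 167 to 246 receptor genes, although the receptor share was higher than control in 4 of 4 litters at each dose, and S100a5 stayed at its control level there.

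In the acetophenone experiment the receptor shares fell into 2 sets of libraries, 6 of litters 1, 4 and 5 at 0.134% to 0.272% and 5 of litters 2 and 3 at 0.484% to 0.820%, so no r over all 11 is given. In the 6 libraries r was 0.890 (exact permutation p = 0.0542, adjusted p = 0.0722) and rho 0.486 (exact permutation p = 0.356), with litters ignored in the permutations. Without the 2 libraries farthest from the median share, one of them the control of litter 5, r over the remaining 4 was -0.63, so the relation rested on those libraries. The 5 libraries of litters 2 and 3 had 1241 to 2742 CPM of S100a5 with no rise along the receptor share: the control of litter 2 had the highest S100a5 and the lowest share of the 5. Centred by litter, r over 11 libraries was 0.703, with p = 0.281 over 96 permutations within litters.

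**Figure D3:**
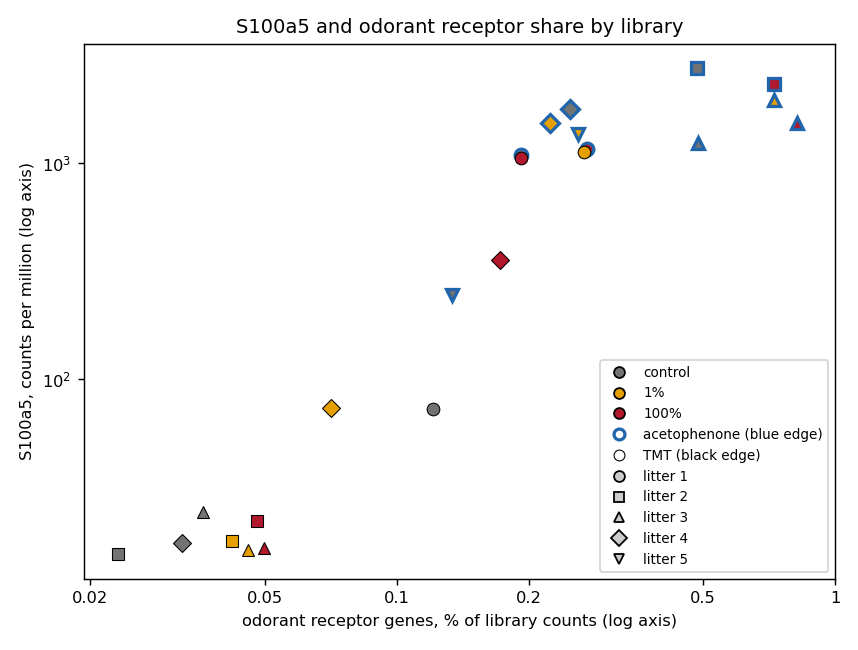
S100a5 CPM against the percentage of library counts on odorant receptor genes, both on log axes, for 23 libraries; blue edges are acetophenone and black edges TMT, fill gives the dose and shape the litter. Libraries with a receptor share up to 0.0498% have under 25 CPM of S100a5, and those with 0.192% or more have over 1000 CPM.

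S100a5 and the receptor share are both parts of the same library total, and transcript base composition moved along with them. The mean GC content of the transcripts behind the counts was 51.9% to 52.5% in TMT controls, 51.2% to 52.0% at 1% TMT, and 50.9% to 51.7% at 100% TMT, against 48.9% to 51.7% in acetophenone libraries. Receptor transcripts have a median GC content of 39%, the S100a5 transcript has 48.5% and the median of all genes is 48.6%. With a correction for GC content and length and the block, S100a5 was 2.04 at 100% TMT (SE 0.90, adjusted p = 0.277, edgeR). The part of base composition in the relation with the receptor share was not tested.

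The genes most like S100a5 over the 23 libraries, by Pearson correlation of log2(CPM + 1) centred on each litter's mean and among 8804 genes with a mean of at least 10 CPM, were Ogt (0.977), which encodes an O-GlcNAc transferase, Cops2 (0.972), a subunit of the COP9 signalosome, Prpf4b (0.971), a kinase of the spliceosome, 4930500J02Rik (0.971) and Acbd7 (0.970). They share with S100a5 a wide range over libraries: Ogt spanned 0.546 to 151 CPM and Cops2 0.937 to 236 CPM. Their transcripts have 37.3% to 43.6% GC, below the median of all genes. Omp correlated with S100a5 at 0.268 on the same measure and S100a9, a calcium-binding protein best known from neutrophils, at 0.931. The litters, libraries and depth are common to all these values, and they are descriptions.

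Calb2 was lower with 100% TMT. The 100% TMT libraries of litters 1 to 4 had 381, 246, 388 and 281 CPM, against 636, 575, 637 and 357 CPM in their controls. All 4 litters were lower at 100% TMT than their own control, as were 17.2% of the 13233 genes tested, and the groups overlapped because the control of litter 4 (357 CPM) lay below 2 odor libraries. The log2 fold change was -0.68 (SE 0.20, adjusted p = 0.185, edgeR). With litter as a block it stayed at -0.68 with an SE of 0.16 and an adjusted p of 0.0481, which passed the threshold, and 0.529% of genes were called lower in that fit. DESeq2 gave an adjusted p of 0.049.

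The Calb2 call depended on the fit. With the correction for GC content and length and the block it was -0.49 (adjusted p = 0.141, edgeR), and with libraries scaled to the summed markers of mature olfactory neurons, also with the block, -1.14 (adjusted p = 0.0433), a scaling that moved the median of all genes to -0.45. With the estimated counts and the block it was -0.71 (adjusted p = 0.0382). In the fits that left out 1 library, or 1 litter with the block, it lay between -0.81 and -0.56 and no adjusted p was under 0.05. Without litter 2 and with the block the adjusted p was 0.217.

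At 1% TMT, Calb2 lay between the control and the 100% dose. Its group means were 551 ± 133 CPM in controls, 426 ± 61.2 CPM at 1% and 324 ± 71.2 CPM at 100% (SD, n = 4 each). The 1% libraries of litters 1 to 4 had 382, 378, 509 and 435 CPM, lower than control in 3 of 4 litters and higher in litter 4. The log2 fold change at 1% was -0.36 (SE 0.20, adjusted p = 0.999, edgeR; with the block adjusted p = 0.694). Between the doses it was -0.32 at 100% against 1% (SE 0.20, adjusted p = 0.972, edgeR). In that comparison 0% of 13233 genes were called with or without the block, 294 higher and 403 lower had an unadjusted p under 0.05, and DESeq2 called 18.

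At 100% acetophenone Calb2 was not lower in any litter. The 100% acetophenone libraries of litters 1 to 3 had 546, 642 and 324 CPM, against 421, 629 and 301 CPM in their controls, higher in 3 of 3 litters, as were 18% of the 11564 genes tested. The log2 fold change was 0.12 (SE 0.41, adjusted p = 1.00, edgeR). At 1% acetophenone litters 3 to 5 had 343, 204 and 403 CPM, against 301, 281 and 368 CPM in their controls, with a log2 fold change of 0.03 (SE 0.30, adjusted p = 1.00). The difference between the odor responses at 100%, acetophenone minus TMT, was 1.06 for Calb2 (SE 0.42, adjusted p = 1.00, edgeR) and 0.84 with the block (SE 0.23, adjusted p = 0.148), so a difference between the odors did not pass the test. In that comparison 0% of 13831 genes were called with or without the block and none by DESeq2, and 180 higher and 481 lower had an unadjusted p under 0.05. By group mean, from the highest, Calb2 ran from TMT control (551 ± 133 CPM) through 100% acetophenone (504 ± 163, SD, n = 3), 1% TMT (426 ± 61.2), acetophenone control (400 ± 139, SD, n = 5) and 100% TMT (324 ± 71.2) to 1% acetophenone (317 ± 102, SD, n = 3), and no neighbours differed by more than the larger SD.

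Some markers of immature olfactory neurons, and Apoe among those of ensheathing glia, were also lower at 100% TMT. The 9 listed markers of immature olfactory neurons summed to 1784 to 2870 CPM in controls, 1787 to 2408 CPM at 1% TMT and 1176 to 1971 CPM at 100% TMT, with overlap. At 100% TMT, 4 of the 9 (Gap43, Gng8, Tubb3 and Crmp1) were lower than control in 4 of 4 litters, as were 17.2% of the 13233 genes tested. The others were lower in only 2 or 3 of 4 litters. Tubb3, a neuronal tubulin, had 254, 189, 253 and 187 CPM at 100% TMT, against 496, 525, 564 and 417 CPM in controls of litters 1 to 4. The 7 listed markers of ensheathing glia summed to 699 to 786 CPM at 100% TMT, against 1071 to 1384 CPM in controls, with no overlap. Apoe, an apolipoprotein, made up most of that sum, with 485 to 627 CPM at 100% TMT and 917 to 1263 CPM in controls. Of all genes tested, 6.17% likewise had every 100% TMT library below every control. The other 6 glial markers summed to 94.8 to 214 CPM at 100% TMT and 120 to 154 CPM in controls. Among those, Npy was lower than control in 4 of 4 litters, and Fabp7, S100b, Sox10 and Frzb were lower in 2 of 4. The 12 markers of mature olfactory neurons summed to 2893 to 4230 CPM at 100% TMT and 1696 to 4506 CPM in controls. The part of these cell types in the Calb2 difference was not tested.

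Among the 8804 genes, those most like Calb2 by the litter-centred correlation were Tbcc (0.952), a tubulin-folding cofactor, Cystm1 (0.929), Evl (0.927), an actin regulator, Tubb2a-ps2 (0.927) and Ftl1 (0.923), the ferritin light chain. Tubb2a-ps2 is annotated as a processed pseudogene and Ftl1 has annotated pseudogene copies, so their counts are uncertain where reads are shared with the copies. The immature-neuron markers Tubb3 and Gap43 stood at 0.907 and 0.887 on that measure. Both are among the markers that were lower at 100% TMT in 4 of 4 litters. The other listed immature-neuron markers were not set against Calb2, so these values do not stand for the cell type. Calb2 and S100a5 correlated at -0.40.

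Pcp4l1 did not pass the test in any comparison, and its log2 fold changes against control lay between -0.02 and 0.21. At 100% TMT litters 1 to 4 had 199, 156, 242 and 153 CPM, against 199, 257, 182 and 166 CPM in controls, and the log2 fold change was -0.02 (SE 0.20, adjusted p = 0.980, edgeR). At 1% TMT they had 169, 228, 210 and 230 CPM and the log2 fold change was 0.06 (SE 0.19, adjusted p = 0.999). Each odor group overlapped its controls.

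With acetophenone the spread of Pcp4l1 lay between litters and not between odor and control. At 100% litters 1 to 3 had 331, 175 and 110 CPM, against 245, 142 and 122 CPM in controls, a log2 fold change of 0.21 (SE 0.52, adjusted p = 1.00, edgeR) and of 0.15 with an SE of 0.18 within litters. At 1% litters 3 to 5 had 113, 383 and 336 CPM, against 122, 392 and 349 CPM in controls, lower in 3 of 3 litters, as were 18.1% of the 12077 genes tested, with a log2 fold change of 0.02 (SE 0.64) and of -0.02 (SE 0.14) within litters. Litters 2 and 3, at 110 to 175 CPM, lay apart from litters 1, 4 and 5, at 245 to 392 CPM. By group mean the order of Pcp4l1 from the highest was 1% acetophenone (277 ± 144 CPM, SD, n = 3), acetophenone control (250 ± 120, n = 5), 1% TMT (209 ± 28.5, n = 4), 100% acetophenone (205 ± 114, n = 3), TMT control (201 ± 39.8, n = 4) and 100% TMT (188 ± 42.2, n = 4). No neighbours in this order differed by more than the larger SD.

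Pcp4l1 ran with Omp over the litters, with a Pearson correlation over 23 libraries of 0.856 before and 0.523 after centring by litter. Omp ranked 558 of 8803 genes by the centred value. Omp was 114 to 318 CPM in acetophenone litters 2 and 3, 878 to 2229 CPM in litters 1, 4 and 5, and 210 to 462 CPM in the TMT libraries. The value before centring therefore pools libraries that fall into separate sets by their Omp level. The genes most like Pcp4l1 after centring were Pms2 (0.857), a DNA mismatch repair protein, Zzef1 (0.847), Nrg1 (0.843), the growth factor neuregulin, Ttll10 (0.841) and Gm684 (0.840), weaker likenesses than those of S100a5 or Calb2. Neither S100a5 (-0.24) nor Calb2 (0.53) was among them.

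Between the acetophenone doses, which share only litter 3 and were compared with litter as a block, 0% of 12873 genes were called and none of the 3 genes passed. S100a5 was -0.80 at 100% against 1% (SE 0.48, adjusted p = 0.799, edgeR), Pcp4l1 0.15 and Calb2 0.10. The S100a5 value was -0.23 without the control of litter 5 and also without the 1% library of litter 5, -1.25 without either library of litter 4, -1.34 without litter 3, and 0.06 without the block. At an unadjusted p under 0.05 there were 453 genes higher and 354 lower in this comparison, and DESeq2 called 13. The differences between the odor responses at 100% were -3.27 for S100a5 (SE 1.68, adjusted p = 1.00, edgeR, acetophenone minus TMT) and -0.21 for Pcp4l1, in a fit whose median over all genes was -0.10. Without the 100% TMT library of litter 1 the S100a5 difference was -1.92. With the block it was -1.82 (SE 1.01, adjusted p = 0.489), and with the block and without TMT litter 4 it was -0.88. At 1% the S100a5 difference was -3.04 without the block (0% of genes called) and -0.22 with it (0.00723% called).

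Other genes of calcium-binding protein families, and genes for proteins with an IQ motif, were read from 4 lists of 50 genes in all. The lists hold the 3 members too. They comprise 15 genes of the S100 family, 5 EF-hand buffers of neurons, 9 for calmodulins and proteins with an IQ motif, and 21 neuronal calcium sensors. Of the 50, 30 had a count in every library.

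S100a9 spanned a range like that of S100a5 between libraries, 219-fold, at 1.11 to 243 CPM, and its lowest value rests on 8 counts, with 10 counts or fewer in 5 libraries. Pcp4 (0.263 to 40.8 CPM), S100a4 (0.468 to 57.6 CPM) and Ocm (0.156 to 17.4 CPM) also had wide ranges, but their lowest values rest on 2 counts, 3 counts and 1 count. Pcp4 encodes a calmodulin-binding relative of Pcp4l1, and Ocm encodes oncomodulin, a parvalbumin-type buffer. S100a9 followed the division of S100a5 in TMT litters 1 and 4: litters 1 to 4 had 140, 1.11, 1.33 and 34.7 CPM at 100% TMT, against 1.23, 1.56, 3.55 and 1.57 CPM in controls.

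**Figure D4:**
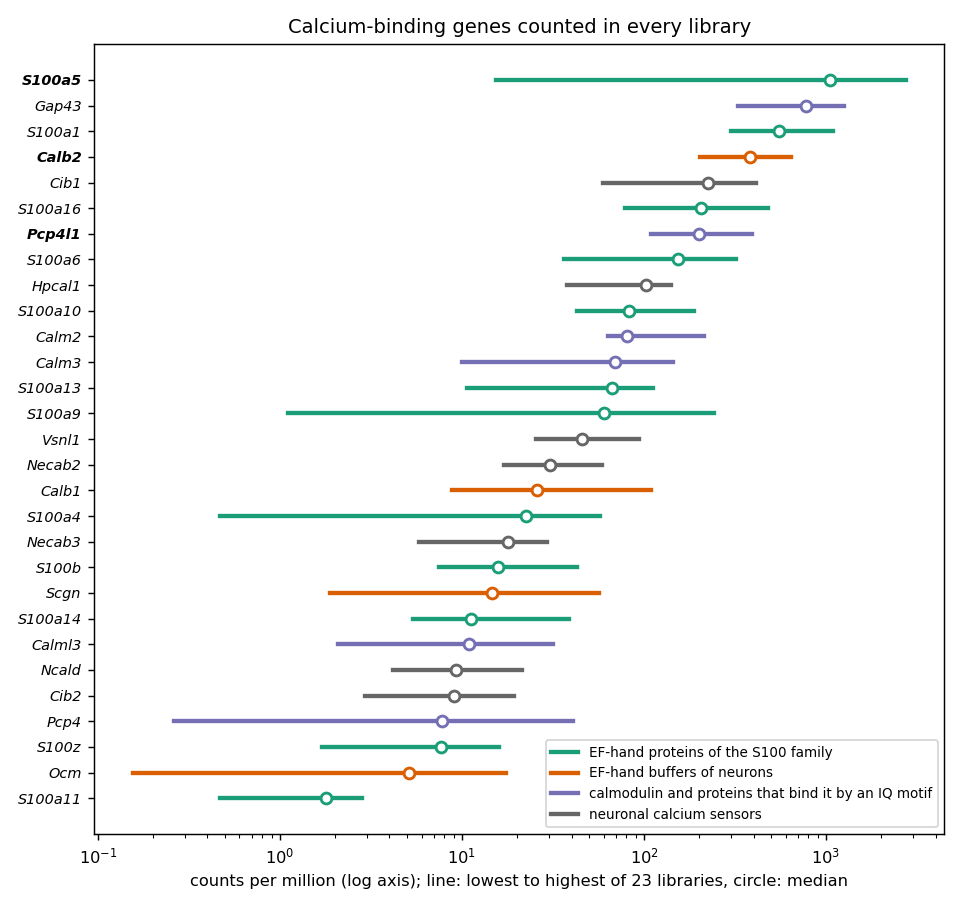
Lowest to highest level over 23 libraries (line) and median (circle), in CPM on a log axis, of 29 of the 30 listed genes with a count in every library. The lists cover calcium-binding families and proteins with an IQ motif. Colours give the list and bold names the 3 genes described. S100a5 reaches from 15.5 to 2742 CPM, while Pcp4l1 and Calb2 lie within less than 4-fold.

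At 100% TMT, 43 of the 50 genes passed the filter on low counts, 0 were called without the block (edgeR, where 0% of all genes were called), and with it 1 was called higher and 1 lower, in a fit that called 1.84% of all genes higher and 0.529% lower. The higher gene was Ocm, with 14.2, 12.03, 10.3 and 9.94 CPM at 100% TMT, against 5.16, 0.156, 0.789 and 1.26 CPM in controls of litters 1 to 4, and without overlap, as for 3.36% of genes tested. Its log2 fold change was 3.58 with the block (SE 0.80, adjusted p = 0.0441, edgeR) on 31 to 87 counts per odor library and 1 to 21 per control. The lower gene was Calb2. Over the 43 genes the median log2 fold change with the block was -0.00, against 0.02 over all genes tested.

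In the fit without the block, S100a14 had the smallest p at 100% TMT among the listed genes with a positive log2 fold change, and S100z and Cib1 had the smallest among those with a negative one. S100a14, an S100 protein of epithelia, had a log2 fold change of 1.39 (SE 0.40, adjusted p = 0.181, edgeR), and S100z -1.91 (SE 0.45, adjusted p = 0.147). Cib1, a calcium- and integrin-binding protein, stood at -0.59 (SE 0.16, adjusted p = 0.168). Gap43, a growth-cone protein that binds calmodulin by an IQ motif, had -0.61 with the block (SE 0.15, adjusted p = 0.0564) and 551, 511, 938 and 504 CPM at 100% TMT, against 1024, 912, 1262 and 781 CPM in controls.

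At 1% TMT none of the 43 genes was called without the block or with it, and S100a9 (4.46, SE 1.65) and S100a8 (4.19, SE 1.56), its partner in the calprotectin complex, had the smallest p without the block (adjusted p = 0.999 for each, edgeR). The 1% library of litter 1 set both values, with 180 CPM of S100a9 and 100 CPM of S100a8, against 1.23 and 0.737 CPM in its control. Ocm had 17.4, 1.87, 2.18 and 15.5 CPM at 1% TMT in litters 1 to 4. Of the 7 listed blood and immune markers, the 2 haemoglobin genes had 1890 CPM at 1% TMT in litter 1 and 2819 CPM in its control, and the other 5 (Ptprc, Cd74, Lyz2, C1qa and Ly6c2) summed to 231 CPM at 1% and 237 CPM in that control. None of the 7 was listed for neutrophils in particular. The part of blood or immune cells in the S100a8 and S100a9 values was not tested.

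With acetophenone none of the 33 listed genes that passed the filter at 100%, or of the 35 at 1%, was called without the block or with it. At 100%, 13 of the 13 S100 genes tested had a negative log2 fold change without the block and 12 of 13 with it. The median without the block was -0.39 against -0.01 over all genes. At 1%, 12 of 13 were positive without the block and with it, with a median of 0.42 against 0.01 over all genes. With TMT, 10 of 14 at 100% and 11 of 14 at 1% were positive without the block, and 9 and 11 with it. Both acetophenone doses share the control of litter 3, the share of all genes with each sign was not counted, and these counts are descriptions. Calm4 had the smallest p at 1% with the block (5.45, SE 0.75, adjusted p = 0.288, edgeR), with 348, 6.75 and 0.643 CPM at 1% acetophenone in litters 3 to 5, against 5.44, 0 and 0.978 CPM in their controls.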

How the data were processed

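Bowtie, bedtools and the mm10 build are named in the submitters' processing notes; their versions and the annotation counted on are not given there. Each deposited table has a row for each of 23481 symbols and 20 unnamed value columns. The first column deposited by the authors is whole numbers, taken here as raw counts of reads with 1 alignment. The last one deposited by the authors was taken as estimated counts, with multiply aligned reads shared out, and was rounded for use as an alternative. The 18 columns between were left aside, and this reading of the columns rests on their values. Tables were joined by symbol because their row order differs.

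CPM are counts per 1000000 of a library's raw counts. The counts were fitted with edgeR 4.0.16 in R 4.3.3 (limma 3.58.1): TMM, filterByExpr with a minimum count of 10, the quasi-likelihood F test, 2-sided, Benjamini-Hochberg adjustment over all genes tested, threshold 0.05. An SE is the log2 fold change divided by the square root of F. Acetophenone doses were fitted with controls of their own litters and TMT doses in 1 fit of 12 libraries. Alternatives were a litter block, DESeq2 1.42.0, RLE size factors, no filter, estimated counts, a loess correction for GC content and transcript length (23113 symbols matched in GENCODE M21, 98.4%), scaling to neuron markers, only the libraries compared, and leaving out libraries or litters.

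Litters named in the labels pair the libraries. As a check of the pairing, deviations from group means were correlated between an odor library and the control of its litter: 100% acetophenone gave 0.683 to 0.858, 1% acetophenone 0.796 to 0.927, 100% TMT 0.0878 to 0.378 and 1% TMT 0.00819 to 0.403. In TMT another litter correlated more for litter 3 at both doses and litter 4 at 1%. The labels do not state whether libraries of a litter hold separate animals. No 2 of the 253 library pairs held identical values.

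The ratio to Omp used 0.5 added counts and an exact permutation test; correlations used 100000 permutations, or all where fewer exist. The genes and lists were chosen with earlier results of these data known, and genes named beside the members are those past the threshold, or the 2 with the smallest p in each direction, of the lists, and the 5 most correlated with each member. Some of those are given by their values only where a result turns on them. Promoter motifs were searched on both strands. Some listed genes are not reported here by name; they stay in the fits and in the counts and sums over the lists.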

Additional observations from a re-analysis of the deposited data

Results flagged for a closer look

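Dixon's test for a single distant library was applied to 20 groups of 4 or 5 libraries, where chance flags about 1 in 20, and it flagged 4. S100a5 in the 1% TMT library of litter 1 (1129 CPM) and in the TMT control of litter 1 (72.5 CPM) stood apart from the other 3 libraries of their groups, at 16.3 to 73.6 CPM and 15.5 to 24.3 CPM. The odorant receptor share stood apart in the same libraries, with 0.267% at 1% TMT and 0.121% in the control. Both have the title code that TMT litters 2 to 4 lack. S100a5 at 100% TMT was not flagged, since litter 4 (356 CPM) lies between litter 1 and the others.

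Calb2 at 100% was lower than control in 4 of 4 TMT litters and higher in 3 of 3 acetophenone litters. The difference of log2 fold changes, acetophenone minus TMT, was 1.06 and did not pass the test over all genes (adjusted p = 1.00, edgeR).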

How the results depend on the processing

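S100a5, Pcp4l1 and Calb2 had at least 50 counts in every library. In the alternatives run, S100a5 kept its direction against control at both TMT doses and at 1% acetophenone and passed the threshold in none. Calb2 at 100% TMT kept its direction in all of them. All other sign changes concern values that passed the threshold in no fit, and their cause was not tested. Values are log2 fold changes.

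Calb2 at 100% TMT passed with the litter block (-0.68), with DESeq2 (-0.68), with estimated counts and the block (-0.71) and with scaling to neuron markers and the block (-1.14). With the litter block alone, Pcp4l1 was -0.022 at 1% acetophenone, 0.24 in the difference between odors at 100% and -0.031 at 1%, and Calb2 was -0.0059 at 1% acetophenone and 0.36 in the difference at 1%. Without the block, 100% against 1% acetophenone was 0.063 for S100a5 and -0.48 for Pcp4l1. The block moved the counts of genes called to 11 (100% acetophenone), 1 (1% acetophenone), 314 (100% TMT), 1 (1% TMT) and 1 (difference at 1%).

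With the GC and length correction and the block, S100a5 was 0.30 at 100% acetophenone. Pcp4l1 was -0.048 at 1% acetophenone, 0.12 at 100% TMT, 0.17 in the difference at 100% and -0.10 at 1%. Calb2 was -0.045 at 1% acetophenone and 0.26 in the difference at 1%. Genes called numbered 7, 1, 102 and 1 in the comparisons with control (100% and 1% acetophenone, 100% and 1% TMT), 4 between the TMT doses and 1 in the difference at 1%.

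With scaling to neuron markers and the block, S100a5 was 0.29 in the difference at 1%. Pcp4l1 was -0.16 at 100% acetophenone, -0.41 at 1% TMT, -0.15 between the acetophenone doses and 0.36 in the difference at 100%. Calb2 was -0.19 at 100% acetophenone, -0.19 between the acetophenone doses and 0.81 in the difference at 1%. Genes called numbered 6, 1, 243 and 2 in the same order of controls, and 1 between the acetophenone doses.

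With estimated counts and the block, Pcp4l1 was -0.041 at 1% acetophenone (-0.00020 without the block), 0.18 in the difference at 100% and -0.073 at 1%. Calb2 was -0.025 at 1% acetophenone and 0.32 in the difference at 1%. Genes called numbered 12 at 100% acetophenone, 465 at 100% TMT, 1 at 1% TMT, 11 in the difference at 100% and 1 at 1%.

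DESeq2 called 5, 1, 509 and 4 genes against controls, 13 between the acetophenone doses, 18 between the TMT doses and 1 in the difference at 1%, where Calb2 was 0.017. RLE size factors also gave Calb2 0.017 there. Without the filter 3 genes were called between the acetophenone doses. With only the libraries compared and the block, 29 genes were called at 100% TMT and 5 between the TMT doses.

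Leaving out 1 library, or 1 litter with the block, S100a5 ranged from -0.42 to 0.49 at 100% acetophenone, from -1.34 to -0.21 between the acetophenone doses, from -1.08 to 3.38 between the TMT doses, from -3.93 to -0.88 in the difference at 100% and from -3.69 to 0.64 at 1%. Pcp4l1 ranged from -0.31 to 0.60 (100% acetophenone), -0.37 to 0.41 (1% acetophenone), -0.20 to 0.16 (100% TMT), -0.031 to 0.19 (1% TMT), -0.24 to 0.049 (between TMT doses), -0.76 to 0.41 (difference at 100%) and -0.26 to 0.53 (difference at 1%). Calb2 ranged from -0.14 to 0.44 (100% acetophenone), -0.20 to 0.22 (1% acetophenone), -0.037 to 0.22 (between acetophenone doses) and -0.26 to 0.54 (difference at 1%). Genes called ranged from 0 to 28, 0 to 19, 0 to 179 and 0 to 1 against controls in the same order, 0 to 5 between acetophenone doses, 0 to 153 in the difference at 100% and 0 to 4 at 1%. The 179 came without TMT litter 1 and 0 came without litter 3, both with the block.

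The ratio of S100a5 to Omp ranged from -1.46 to 0.69 at 100% acetophenone, from -0.43 to 2.36 at 1% acetophenone, from 0.91 to 2.93 at 100% TMT and from -0.20 to 1.98 at 1% TMT. The correlation with the receptor share in the 6 acetophenone libraries was 0.870 with estimated counts (exact permutation p = 0.0361) and -0.63 without 2 libraries. In the TMT libraries it was 0.914 to 0.950 without 1 litter each.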

Other observations

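The acetophenone and TMT controls, which differ in litter and title code as well as in experiment, differed most in S100a5 among the 3 genes: 245 to 2742 CPM in the 5 acetophenone controls and 15.5 to 72.5 CPM in the 4 TMT controls, without overlap. Pcp4l1 had 122 to 392 CPM and 166 to 257 CPM in these controls, and Calb2 281 to 629 CPM and 357 to 637 CPM, with overlap in both. Because no litter or title code holds both kinds of control except the code shared by acetophenone litters 4 and 5 and TMT litter 1, the comparison was not tested. The share of all genes without overlap between these controls was not counted either, so how unusual the S100a5 gap is remains unknown. Within that shared code the acetophenone controls had 1771 and 245 CPM of S100a5 and the TMT control 72.5 CPM.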
